A study of Mus musculus with 28 samples.

Results

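The replication-dependent histone genes encode the bulk of the protein that packages new DNA: the core histones H2A, H2B, H3 and H4, which form the nucleosome, and the linker histone H1, which binds the DNA between nucleosomes. They lie in clusters, mostly lack introns, and are transcribed mainly in S phase with the coactivator NPAT. Their mRNAs normally end in a short conserved stem-loop instead of a poly(A) tail, and the stem-loop binding protein SLBP governs their processing, stability and translation. Replacement histones, encoded elsewhere by polyadenylated mRNAs, are made throughout the cell cycle. Some clustered genes are also known to give polyadenylated transcripts, above all in cells that leave the cycle.

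The genes described here were all symbols of the deposited table that began with Hist1h, Hist2h, Hist3h or Hist4h. There were 70 among 53564 symbols: 6 of class H1, 20 of H2A, 19 of H2B, 12 of H3 and 13 of H4. The Hist1 cluster on mouse chromosome 13 held 56, the Hist2 cluster on chromosome 3 held 10, 3 were on chromosome 11 and Hist4h4 was on chromosome 6. A gene was tested when it reached 1 deposited TPM (transcripts per 1000000) in at least 2 libraries. This kept 68 of the 70, and left out Hist1h1t, a linker histone of spermatocytes, and the pseudogene Hist3h2bb-ps.

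The study followed germ cell induction from C57BL6 mouse embryonic stem cells (ESC) that differed in their telomeres. LT cells came from wild-type ESC with long telomeres, ST cells from ESC of generation 4 Terc knockout mice, which lack the RNA template of telomerase and have short telomeres, and RT cells from Terc-rescued ESC. ESC were turned into epiblast-like cells over 2 days with KSR, bFGF and Activin A. The 1dEB samples are embryoid bodies after 1 day of induction with BMP4, SCF, EGF and LIF, 4 days of which give primordial germ cell (PGC)-like cells. The 1dMeioLC samples are meiocyte-like cells: those PGC-like cells were aggregated with somatic cells of female Actin-GFP E12.5 gonads, kept 1 day with 3 µM retinoic acid, and sorted as GFP negative. E10.5PGC are germ cells sorted by CD61 and SSEA1 from E10.5 gonads, and PGC-1dMeioLC are such cells after the same aggregate culture. The labels do not say how many ESC lines or clones stand behind a group, nor how the rescue was made. The 8 groups had 2 libraries each, and nothing in the labels says that these came from separate cultures or animals, so each p-value measures only the spread between these libraries, which may be technical.

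The 16-base stem-loop is shown first because it marks the mRNAs of this family, and the 6 genes chosen are ones on which the results below turn. The windows come from GENCODE M21 transcripts (GRCm38, the same assembly as the submitters' mm10), read 5′ to 3′ on the mRNA strand and written as DNA, and the capitals mark the stem-loop.
Hist1h1c: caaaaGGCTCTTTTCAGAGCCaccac
Hist3h2a: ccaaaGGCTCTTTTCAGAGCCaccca
Hist3h2ba: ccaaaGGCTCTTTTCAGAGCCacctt
Hist2h2aa1: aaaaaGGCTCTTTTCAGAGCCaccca
Hist1h3e: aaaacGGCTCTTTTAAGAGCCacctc
Hist1h4h: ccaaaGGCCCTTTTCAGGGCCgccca
A stem-loop with 6 paired bases on each side of a 4-base loop was found within 150 bases after the stop codon in 44 of the 70 genes, and in 2 of 19361 other genes (0.0103%). The stem of Hist1h4h, with GGCCCT on its left side, was carried by 7 of the H4 genes in that exact form, whereas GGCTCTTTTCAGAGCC was the commonest form in the other 4 classes, with 26 genes. Of the 26 genes without a match, 15 have annotated transcripts that stop within 30 bases of the stop codon, which includes Hist1h1b and Hist1h2ah. Hist1h2bc was a different case, because its annotated transcript runs 742 bases past the stop codon and holds no such stem-loop in the 150 bases searched. That transcript is spliced, with 1156 bases from a gene at chr13:23684199-23692908. Genomic bases left out of it were not searched, so a stem-loop in another transcript of the gene would have been missed.

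Gene starts carry further shared letters. Promoters of 300 bases (250 before the start and 50 after it) were matched in the RefSeq GRCm38.p6 table for 61 of the 70 genes. The CCAAT box, searched as CCAAT on both strands, was in 52 of the 61 (85.2%) and in 37.4% of all 32851 promoters of that length. By class it was in every matched H1, H2A, H2B and H3 promoter, and in 3 of the 12 H4 promoters. TATAAA on either strand was in 57.4% of the 61 and in 13.6% of all. AAACACA, the core of the H1 box, was in 5 of 6 H1 promoters, 4 of the 55 others and 7.18% of all. The octamer ATTTGCAT was in 6 of 15 H2B promoters, 7 of the 46 others and 1.74% of all. Matches of different motifs can share end letters, as where TATAAA runs into AAACACA, and none overlap in the 3 promoters printed. A match is a string of letters, not a measured site.

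Below are the promoters of Hist1h1c and Hist1h1b, linker histone genes whose RNAs differed in opposite directions between ST and LT 1dEB, and of Hist1h2ac, whose 300 bases hold the 251-base interval it shares with the divergent gene Hist1h2bc. Capitals mark matches of the 4 motifs just listed, or of their reverse complements. The Hist1h1c promoter lies at chr13:23738557-23738856 on the plus strand, that of Hist1h1b at chr13:21780576-21780875 on the minus strand, and that of Hist1h2ac at chr13:23683910-23684209 on the minus strand.
Hist1h1c: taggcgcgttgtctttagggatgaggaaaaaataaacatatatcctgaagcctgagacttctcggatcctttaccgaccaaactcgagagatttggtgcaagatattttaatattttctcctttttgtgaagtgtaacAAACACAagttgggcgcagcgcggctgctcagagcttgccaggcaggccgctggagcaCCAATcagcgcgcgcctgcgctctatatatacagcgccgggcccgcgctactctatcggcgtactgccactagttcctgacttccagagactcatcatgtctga
Hist1h1b: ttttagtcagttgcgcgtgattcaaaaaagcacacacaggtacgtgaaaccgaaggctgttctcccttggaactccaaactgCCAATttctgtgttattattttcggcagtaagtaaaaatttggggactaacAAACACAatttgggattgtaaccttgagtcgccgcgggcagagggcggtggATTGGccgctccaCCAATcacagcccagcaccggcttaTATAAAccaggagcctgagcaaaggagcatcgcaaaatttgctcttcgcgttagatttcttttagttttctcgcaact
Hist1h2ac: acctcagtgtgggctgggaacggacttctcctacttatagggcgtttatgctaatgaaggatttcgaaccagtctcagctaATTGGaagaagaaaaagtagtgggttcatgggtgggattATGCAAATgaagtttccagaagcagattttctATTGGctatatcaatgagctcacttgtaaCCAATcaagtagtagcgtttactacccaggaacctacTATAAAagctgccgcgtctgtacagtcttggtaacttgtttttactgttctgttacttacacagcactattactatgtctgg
Both linker histone promoters hold the H1 box letters upstream of a CCAAT box, and the Hist1h1b promoter has TATAAA where the script found none in that of Hist1h1c. The Hist1h2ac interval holds the octamer, as its reverse complement.

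The deposited values are TPM, so the number of reads behind a library is unknown and a value of 0 is described as listed at 0. RNA of a ribosomal RNA-like locus on chromosome 17 (4 genes) took 23.9% to 41% of deposited TPM in the 1dEB libraries and 0.912% to 9.22% in the others. Values are therefore given as scaled TPM, in which the nuclear protein-coding genes of each library sum to 1000000, and the factor applied ran from 1.63 to 3.68. Terc, the gene knocked out, was listed at 0 in all 4 ST libraries, lay between 2.38 and 12.3 scaled TPM in the LT and RT 1dEB libraries and between 1.15 and 8.87 in the LT and RT 1dMeioLC libraries, and was also listed at 0 in both PGC-1dMeioLC libraries, which carry no knockout label. Germ cell markers (9 genes) summed to 6170 and 6173 scaled TPM in E10.5PGC and to 324 and 336 in ST-1dMeioLC, against 1116 to 1656 in RT- and LT-1dMeioLC. Gonadal somatic markers (9 genes) summed to 246 to 434 in the 4 aggregate-cultured groups and to 36.1 and 38.6 in E10.5PGC. Erythroid markers (3 genes) were between 785 and 2699 in the groups from gonads or aggregates. In such bulk samples, fewer cells of a type and less RNA per cell cannot be told apart.

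Summed over a class, H2A RNA outweighed the other classes in every group. Its share of all scaled histone TPM was lowest in ST-1dEB, at 68.4%, and highest in E10.5PGC, at 95.6%. H2A summed to 8962 ± 94.3 scaled TPM (SD, n = 2) in LT-1dEB, 4153 ± 1151 in ST-1dEB and 5511 ± 384 in RT-1dEB. The plot of class sums shows the H2A sum of both ST-1dEB libraries (4968 and 3339) below both LT-1dEB libraries (8896 and 9029). H2B went the other way, from 250 ± 6.02 in LT-1dEB to 814 ± 35.1 in ST-1dEB, with RT-1dEB at 504 ± 6.87. H1 stood at 249 ± 8.87, 387 ± 7.38 and 291 ± 0.209 in LT, ST and RT 1dEB. The H3 sums of the 3 lines overlapped at this stage, and the H4 sums of ST and of RT each overlapped those of LT. The H4 sums of ST (478 and 535) lay just above those of RT (475 and 435). H3 was 186 ± 29.6 in LT, 162 ± 28.4 in ST and 177 ± 3.52 in RT, and H4 was 468 ± 21.5, 506 ± 39.9 and 455 ± 28.5. With TPM as deposited the LT and ST class sums kept these orders for H1, H2A and H2B, but H1 in RT-1dEB, at 81.9, fell below LT-1dEB, at 96.6, and RT H2A, at 1555, fell below ST, at 1841.

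**Figure D1:**
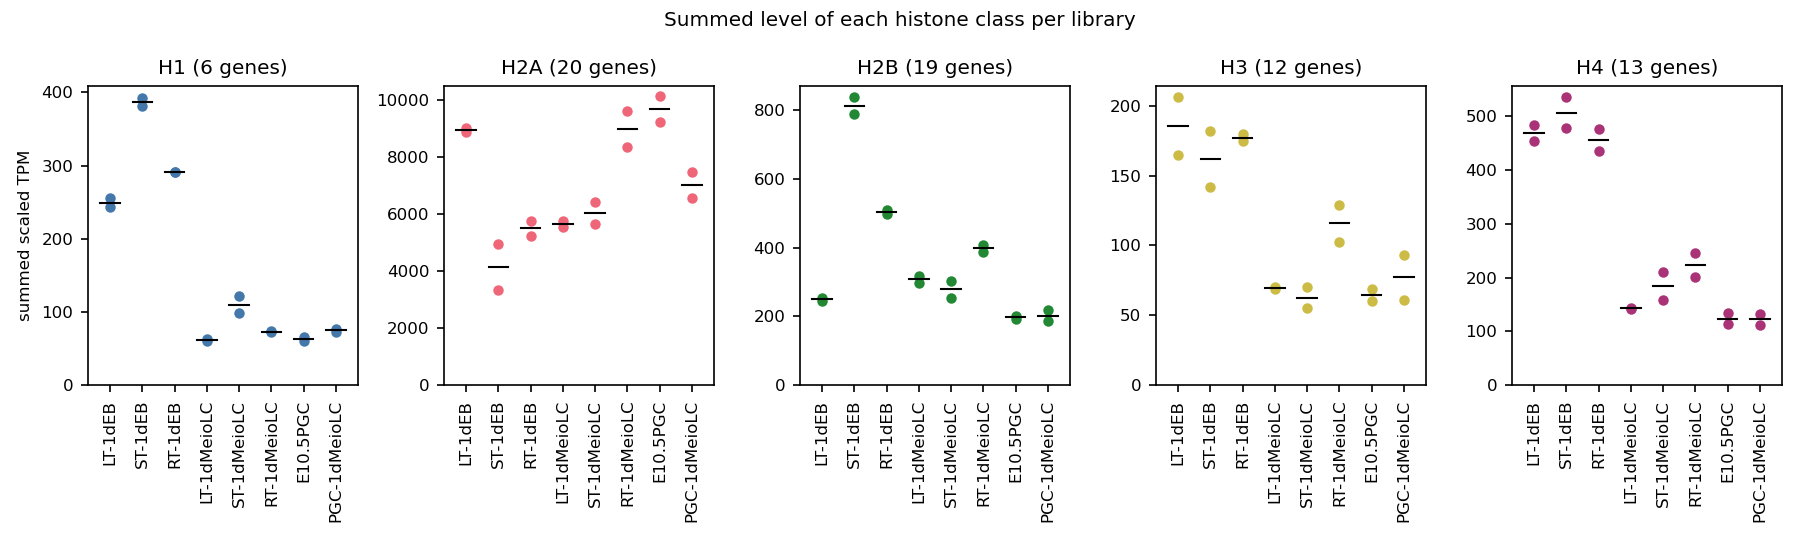
Summed scaled TPM of each histone class (one panel per class, y axis starting at 0) in the 16 libraries, grouped on the x axis; points are libraries and bars are group means. H2A is highest in E10.5PGC (9705 ± 653), LT-1dEB and RT-1dMeioLC, while H1 is several-fold higher in the 1dEB groups than elsewhere and H2B stands highest in ST-1dEB (814 ± 35.1).

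The H2A sum was carried by near-identical copies, and how reads were shared among them cannot be checked from TPM. Hist1h2ah had 2280 and 2631 scaled TPM in LT-1dEB, 1271 and 825 in ST-1dEB, and a mean of 1746 over the 16 libraries, the highest of the 70 genes. Hist1h2ag followed it at 0.82 to 0.86 of its level in each library. All 20 H2A genes have an annotated antisense gene overlapping them, and no source used here gives the strand setting of the counting, so reads from sense and antisense RNA cannot be told apart. Among the 70 genes, 29 shared at least 50% of their 100-base windows with another gene and 6 shared none. Across the 68 tested genes the share of windows in common and the spread between replicates had a Spearman rho of 0.32, and transcript length and level one of -0.27, given as descriptions over genes that share libraries. Hist1h2an, with 83.3% of windows shared, is an example of unstable replicates: 611 and 97.8 in LT-1dEB. Genes that share little are the firmer base for what follows: Hist1h1b and Hist1h4d share no window, Hist3h2ba shares 4.85%, Hist1h1c 5.07%, Hist1h2bm 6.59% and Hist1h2ac 8.06%. Hist1h2bc shares 25.4%, Hist3h2a 29.8% (with the overlapping Trim17), Hist1h4h 38.5% and Hist1h3e 42.9%.

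**Figure D2:**
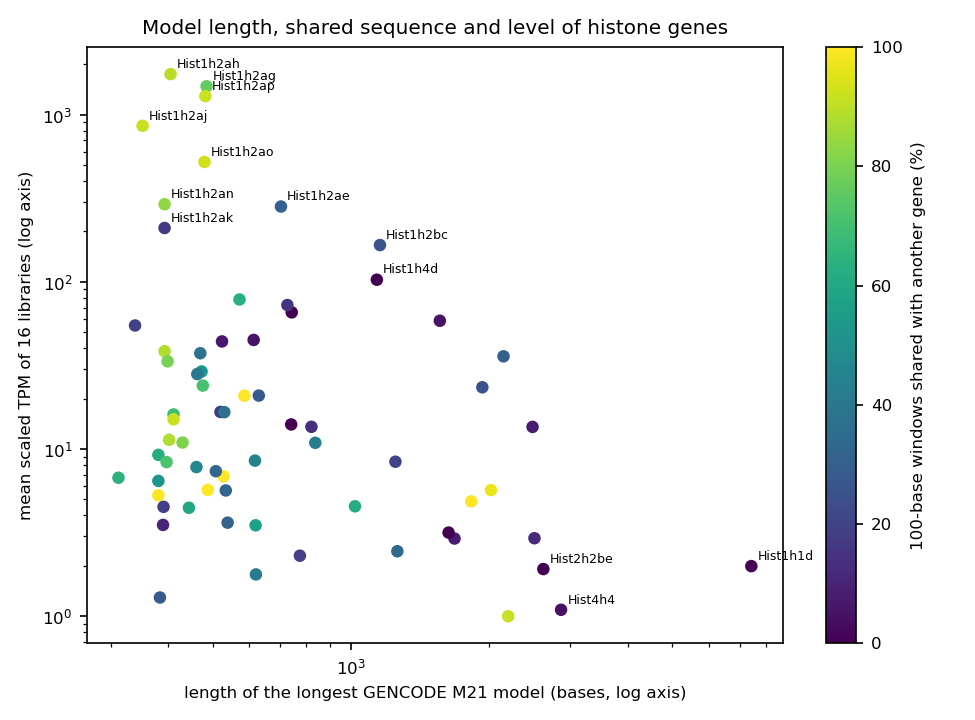
Length of the longest annotated transcript (x axis, bases, log scale) against mean scaled TPM over 16 libraries (y axis, log scale) for the 68 tested genes, coloured by the percent of 100-base windows shared with another gene. The highest levels belong to short H2A models with most windows shared, such as Hist1h2ah (1746 scaled TPM, 89.5% of windows shared).

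The first comparison asked how short telomeres went with histone RNA at the start of germ cell induction. In ST-1dEB against LT-1dEB, 12 histone genes were higher and 13 lower of 68 (36.8%) at an adjusted p under 0.05 in limma's test on log2(scaled TPM + 1), the scale of all fold changes below. Over all 21935 genes, 40.7% were called, 22% higher and 18.8% lower, so the histone genes were not called more often than genes at large. The median difference was -0.27 over the 68 and 0 over all genes. Of the 25 calls, 8 higher and 9 lower held under every alternative in which the gene was tested (scaling, pseudocount, filter, replicate block, and any 1 of the 4 libraries left out). The genes named next are among these unless said otherwise. By class, higher and lower counts were 1 and 2 of 5 for H1, 4 and 5 of 20 for H2A, 3 and 1 of 18 for H2B, 3 and 3 of 12 for H3, and 1 and 2 of 13 for H4.

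Among linker histones the balance shifted from Hist1h1b to Hist1h1c. Hist1h1c, a linker histone gene also expressed in non-dividing cells, had 38.4 and 49.6 scaled TPM in LT-1dEB, 253 and 249 in ST-1dEB, and 123 and 113 in RT-1dEB. ST was highest, RT lay between, and no groups overlapped. The rise in ST over LT was 2.50 ± 0.14 (log2, SE; adjusted p = 3.4e-07), and RT fell below ST by 1.09 (SE 0.14, adjusted p = 0.00023) but stayed above LT by 1.41 ± 0.14 (adjusted p = 3.3e-05). Hist1h1b had 119 and 113 in LT, 81.8 and 72.7 in ST, and 85.4 and 91.3 in RT. Both ST libraries lay under both LT libraries, a change of -0.58 ± 0.10 (adjusted p = 0.00089), and RT differed from ST by 0.19 ± 0.10 (adjusted p = 0.16). Hist1h1e read 58.7 and 54.4 in LT against 34.7 and 43.6 in ST, and its change of -0.53 lost its call with TPM as deposited, without the filter, or when either LT library or ST replicate 1 was left out, and the gene overlaps Hist1h2be. Hist1h1a spread from 21.2 to 36 in LT and from 8.32 to 21 in ST and did not pass (adjusted p = 0.092).

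Of the 20 H2A genes, 5 fell, all of the Hist1 cluster, and 4 rose: Hist3h2a, Hist2h2aa1, Hist2h2aa2 and the pseudogene Hist1h2al. The abundant copies Hist1h2aj (-0.84, adjusted p = 0.053) and Hist1h2ao (-1.03, adjusted p = 0.072) did not pass, nor did Hist2h2ac (-0.07, adjusted p = 0.98) and Hist2h2ab (0.80, adjusted p = 0.77). Hist1h2aj, with a mean of 857 scaled TPM over the 16 libraries, is an unprocessed pseudogene in the annotation used. Hist3h2a, whose gene lies next to Hist3h2ba on chromosome 11, had 7.27 and 8.84 scaled TPM in LT-1dEB, 36.5 and 34.2 in ST and 26.5 and 25.4 in RT. The 3 lines did not overlap, and ST exceeded LT by 2.01 ± 0.13 (adjusted p = 6.4e-07). RT exceeded LT by 1.58 ± 0.13 (adjusted p = 6.7e-06). Hist2h2aa1 had 4.3 and 7.11 in LT, 78.9 and 78.8 in ST and 30.8 and 16.2 in RT. It rose by 3.61 ± 0.39 in ST (adjusted p = 3.7e-05), but every window of it is shared with other genes, among them the antisense genes Gm20633 and Gm20632 and its inverted copy Hist2h2aa2. The call of Hist2h2aa2 (2.72, adjusted p = 0.013) was lost without LT-1dEB replicate 1 (adjusted p = 0.0996) or without either ST-1dEB library (adjusted p = 0.057 and 0.052). Hist1h2al is a processed pseudogene at chr13:51202727-51203065, far from the cluster, with 1.49 and 6.83 in LT, 96.1 and 62.4 in ST and 22.6 and 24.3 in RT. Its 17.8-fold difference (4.15 ± 0.43, adjusted p = 2.7e-05) was the largest of the 68. Hist1h2al shares 19.2% of its windows with other genes, among them Hist2h2aa1 and the antisense Gm20632 and Gm20633. The rises of Hist1h2al and Hist2h2aa1 may therefore not be separate.

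The falling H2A genes were led in level by Hist1h2ah, whose LT and ST values are given above. It fell by 1.26 (SE 0.26, adjusted p = 0.0028), and its copies Hist1h2ag and Hist1h2ap had changes of -1.25 and -1.31. Hist1h2ab, less abundant, had 82 and 67.5 in LT, 23.3 and 18.8 in ST and 47.4 and 54.9 in RT. LT was above RT and RT above ST without overlap, and the ST change was -1.78 ± 0.39 (adjusted p = 0.0038).

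Hist1h2bc, with a mean of 629 scaled TPM, made up most of the H2B sum of 814 in ST-1dEB. It encodes a core H2B and is transcribed away from Hist1h2ac. It had 103 and 87.3 scaled TPM in LT-1dEB, 646 and 613 in ST and 330 and 322 in RT. Neither ST nor RT overlapped LT, and the ST rise of 2.72 ± 0.12 (6.58-fold) had the lowest adjusted p of the 68, 4.4e-08. RT was below ST by 0.95 (SE 0.12, adjusted p = 0.00015) and above LT by 1.77 ± 0.12 (adjusted p = 1.7e-06). Its divergent partner Hist1h2ac read 9.74 and 7.65 in LT, 9.76 and 8.75 in ST and 14.1 and 10.2 in RT, and did not pass between ST and LT (0.09 ± 0.44, adjusted p = 0.93). Hist1h2bq rose by 0.83 ± 0.19 (adjusted p = 0.0054), from 6 and 6.43 to 12.9 and 10.8. It shares 96.9% of its windows with other genes, so the rise cannot be assigned to this gene alone. Hist1h2bm read 14.4 and 17.7 in LT and 8.4 and 6.37 in ST, and its call (-1.03) was lost whenever 1 of the 4 libraries was left out.

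H3 genes moved in both directions, also within the Hist2 cluster. Hist2h3c1 had 0.828 and 0.507 scaled TPM in LT-1dEB, 18.8 and 14.9 in ST and 11.9 and 11.5 in RT, and rose by 3.42 ± 0.28 in ST (adjusted p = 4.9e-06). Its neighbour Hist2h3b had 10.3 and 16.1 in LT, 2.71 and 0 in ST and 13.2 and 10.4 in RT. It fell in ST by 2.85 (SE 0.50, adjusted p = 0.0011) and was higher in RT than in ST by 2.72 ± 0.50 (adjusted p = 0.0020). All windows of both genes are shared with other genes, including each other, so their opposite values are uncertain. Hist1h3e, which shares 42.9%, had 21.1 and 25.5 in LT, a mean of 10.6 ± 0.0844 in ST and 14.6 and 11.4 in RT, and its ST change was -1.06 ± 0.20 (adjusted p = 0.0016).

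H4 genes all encode nearly the same protein but did not move together. Hist1h4h had 25.7 and 27.6 in LT-1dEB, 123 and 168 in ST and 74.7 and 71.5 in RT. The ST rise was 2.39 ± 0.55 (adjusted p = 0.0054), and the RT values lay between without overlap (RT against LT 1.42 ± 0.55, adjusted p = 0.066). Hist1h4d had 195 and 239 in LT, 104 and 129 in ST and 175 and 139 in RT, an ST change of -0.89 ± 0.16 (adjusted p = 0.0013). Hist1h4c fell by 1.68 (SE 0.32, adjusted p = 0.0017), from 26.4 and 25.4 to 11.3 and 4.75, with RT at 10.4 and 8.5. Hist1h4i, at 123 and 136 in LT and 167 and 160 in ST, did not pass (0.33 ± 0.23, adjusted p = 0.29).

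**Figure D3:**
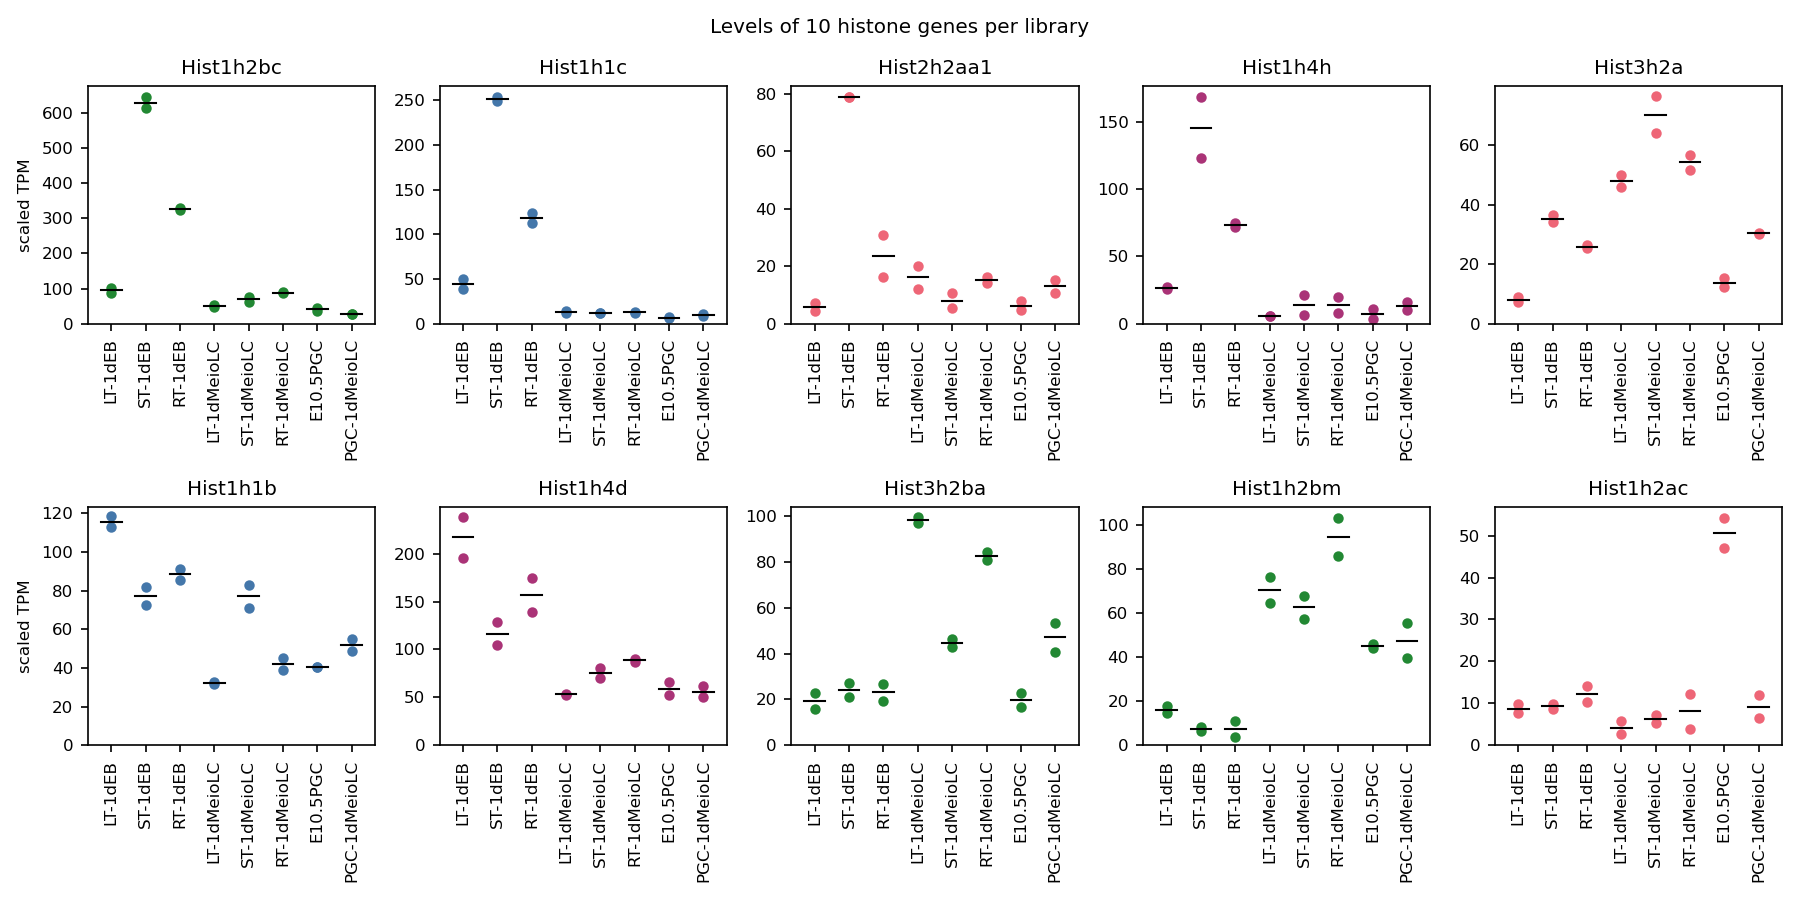
Scaled TPM of 10 histone genes (one panel per gene, y axis starting at 0) in each of the 16 libraries, with groups on the x axis. Hist1h2bc, Hist1h1c, Hist2h2aa1 and Hist1h4h are highest in both ST-1dEB libraries with RT-1dEB between ST and LT, Hist1h1b and Hist1h4d are highest in LT-1dEB, and Hist1h2ac is highest in E10.5PGC (47.1 and 54.1).

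On the scaled values the mean of the rescued line lay between the other lines for most of these genes, which for those lower in ST did not hold with TPM as deposited. Of the 12 genes higher in ST, the RT mean was between the LT and ST means for 11, and 7 were called lower in RT than in ST. Of the 13 lower in ST, the RT mean was between for 12, and 3 were called higher in RT than in ST. With TPM as deposited the RT mean was between for 10 of the 12 and for 4 of the 13. It was then below the ST mean for 9 of those 13, and 1 of the 13 was called higher in RT than in ST. These counts share the ST libraries and so are not independent of the first comparison. They were not made over all genes called between ST and LT, so nothing particular to histone genes can be read from them. RT against ST gave 6 genes higher and 7 lower, against 35.7% of all genes called, but with TPM as deposited the split was 2 and 19. The scale factors of RT-1dEB were the largest of the 16 libraries. Without RT-1dEB replicate 1 the higher count was 3, and the lower count was 4 without ST-1dEB replicate 1 or without RT-1dEB replicate 2. The calls for Hist2h2aa1 (-1.77), Hist1h2al (-1.68) and Hist3h2a (-0.43) were among those lost when a library was left out. For Hist2h2aa1 the adjusted p was 0.053 without RT-1dEB replicate 2, for Hist1h2al it was 0.084 without ST-1dEB replicate 1 and 0.057 without RT-1dEB replicate 1, and for Hist3h2a it missed the threshold without any 1 of the 4. RT against LT gave 11 higher and 9 lower, against 37.9% of all genes called, and the lower count was 3 without LT-1dEB replicate 1 or RT-1dEB replicate 2 and 4 without LT-1dEB replicate 2.

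The genes around the histone pathway were mainly lower in ST-1dEB. All 26 S phase genes and all 10 genes of G2 and M phase in the lists were lower than in LT, as were 24 and 10 of them with TPM as deposited. Pcna, the replication clamp, went from 262 and 269 scaled TPM to 148 and 147 (-0.84 ± 0.04, adjusted p = 4.6e-08), and RT had 163 and 170. Mki67, a proliferation marker, changed by -0.87 ± 0.11 (adjusted p = 9.9e-05). Of 16 histone chaperone genes 11 were lower and none higher, with Asf1b, which hands H3 and H4 to new DNA, at -1.24 ± 0.07 and Supt16, a subunit of FACT, at -0.83 ± 0.04. Of 11 tested replacement histone genes 8 were lower and 1 higher. The one that rose was H1f0, the linker histone of differentiated cells (0.80 ± 0.05, adjusted p = 4.8e-07), and H2afv, which encodes an H2A.Z protein, changed by -1.26 ± 0.06 (adjusted p = 1.6e-07).

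The machinery of histone mRNA itself, 22 genes, had 12 lower and 2 higher in ST-1dEB. Slbp read 29.4 and 25.5 in LT, 18.6 and 18.7 in ST and 19.6 and 22.4 in RT, an ST change of -0.53 ± 0.08 (adjusted p = 0.00044). Npat read 23.3 and 19.2 in LT and 16.5 and 18.7 in ST and did not pass (-0.25 ± 0.10, adjusted p = 0.061). Lsm11, a component of the U7 particle that cuts histone pre-mRNA, changed by -0.97 ± 0.18 (adjusted p = 0.0014) and its partner Lsm10 by 0.49 ± 0.12 (adjusted p = 0.0071). In RT against ST, 17 S phase genes were higher and 2 lower, but 1 and 14 with TPM as deposited, and chaperones turned likewise from 11 higher and 1 lower to 1 and 12, so that no direction is given for these lists in RT. Other composition measures differed too: fibroblast markers (6 genes, all higher in ST) summed to 40.5 and 42.8 in LT-1dEB, 627 and 642 in ST and 281 and 301 in RT, and of 10 reference RNAs that code for no protein (among them Rpph1, Malat1, the mitochondrial ribosomal RNAs and 2 genes of the ribosomal RNA-like locus) 6 were lower and 1 higher in ST than in LT, and 6 were higher and none lower in RT than in ST. Terc, the gene knocked out, and the protein-coding Lars2 were taken off this list after its values were seen, and with them the counts were 8 and 1 of 12, and 8 and none. The part of either in the histone differences was not tested.

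The same lines were compared at the meiocyte-like stage. In ST-1dMeioLC against LT-1dMeioLC, 10 histone genes were higher and 9 lower of 68, against 33.9% of all genes called (20.1% higher and 13.8% lower), and the median difference was -0.08 (0.01 over all genes). Calls were less stable here: 1 of the 10 and 4 of the 9 held under every alternative. The higher count was 1 without LT-1dMeioLC replicate 2 and 6 without either ST library, and the lower count was 5 without LT-1dMeioLC replicate 1. By class, 2 H1 genes of 5 were higher and none lower, 1 H2A gene was higher and 2 lower of 20, 3 and 1 of 18 for H2B, 2 and 3 of 12 for H3, and 2 and 3 of 13 for H4. Under quantile normalization the split was 9 and 10, and with TPM as deposited 8 and 11.

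Hist1h1b was the most firmly higher gene. It had 31.6 and 32.4 scaled TPM in LT-1dMeioLC, 70.9 and 83 in ST and 38.7 and 45.1 in RT. ST stood above both other lines without overlap, by 1.23 ± 0.10 over LT (adjusted p = 1.9e-05), and RT fell below ST by 0.86 (SE 0.10, adjusted p = 0.00016). Hist1h1c, the gene that led the H1 class in ST-1dEB, had 14.1 and 11.7 in LT, 11.4 and 12 in ST and 12.6 and 12.4 in RT at this stage, with overlap between lines (-0.13 ± 0.14, adjusted p = 0.56).

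The lower genes were mainly of H3 and H4. Hist1h3e had 10.9 and 7.05 in LT-1dMeioLC, 0.926 and 0.62 in ST and 13.9 and 13.9 in RT. Both ST libraries were below every other library of the series used here, the change against LT was -2.47 ± 0.20 (adjusted p = 1.8e-05), and RT exceeded ST by 3.08 ± 0.20 (adjusted p = 5.7e-06). Hist1h4f had 3.78 and 1.37 in LT and 2.19 and 2.48 in RT, and was listed at 0 in both ST libraries. Hist1h3f was also listed at 0 in both ST libraries, with 1.37 and 2.97 in LT. Hist1h3c, with 9.9 and 6.8 in LT, 3.69 and 6.58 in ST and 22.5 and 32.3 in RT, did not pass between ST and LT. For this gene RT exceeded ST by 2.23 ± 0.35 (adjusted p = 0.00093). Hist3h2ba, the H2B gene beside Hist3h2a, had 99.6 and 96.8 in LT, 42.9 and 46.4 in ST and 81 and 84.6 in RT, a change of -1.12 ± 0.22 in ST (adjusted p = 0.0034). Its return in RT (0.88 ± 0.22, adjusted p = 0.012) was lost without ST-1dMeioLC replicate 1 (adjusted p = 0.064) or RT-1dMeioLC replicate 2 (adjusted p = 0.059).

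RT against ST at this stage gave 12 histone genes higher and 3 lower, against 34.5% of all genes called, 10.4% higher and 24.1% lower. The higher count was 7 without ST-1dMeioLC replicate 1 and 6 without RT-1dMeioLC replicate 2, while the lower count was 1 without RT-1dMeioLC replicate 1, with TPM as deposited and under quantile normalization. The median was 0.48 over the 68 and -0.11 over all genes. Of the 12, 4 held under every alternative: Hist1h3e, Hist1h4f, Hist1h3c and Hist1h2an, the last with 69 and 39.5 in ST and 658 and 951 in RT. RT against LT gave 6 higher and 0 lower, against 16.5% of all genes called, 5.75% higher and 10.8% lower. By the same limma test 16 of the 68 had an unadjusted p under 0.05, the 9 higher calls with TPM as deposited also came with 0 lower, and the higher count was 1 without LT-1dMeioLC replicate 2 or RT-1dMeioLC replicate 2. No share of all genes was taken at the unadjusted threshold, so the count of 16 cannot be set against the 16.5%. Hist1h2bc was the call that held under every alternative, at 52.8 and 46.3 in LT and 89 and 86.5 in RT (0.81 ± 0.12, adjusted p = 0.0015).

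The pathway genes did not show the uniform decrease of ST-1dEB. In ST against LT 1dMeioLC, 2 S phase genes were higher and 7 lower of 26, and 2 and 5 of the 10 G2 and M genes. Replacement histones were 4 higher and 4 lower of 11, chaperones 6 and 4 of 16, and mRNA processing genes 3 and 5 of 22. Coil, a Cajal body protein, rose by 2.14 ± 0.10 (adjusted p = 7.4e-07), whereas it had changed by -0.95 ± 0.10 in 1dEB. Slbp read 66.6 and 67.3 in LT, 56.1 and 56.5 in ST and 65.6 and 65.5 in RT. Beside these values, the ribosomal RNA-like share was 1.91% of deposited TPM in LT, 9.18% in ST and 1.38% in RT, and erythroid markers summed to 1935 and 1997 in LT, 2690 and 2699 in ST and 1234 and 1254 in RT. Their part in the histone values was not tested.

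Whether the ST minus LT difference itself changed between stages was tested with an interaction term, on the same 8 libraries. It was called for 25 of 68 genes, 12 more positive and 13 more negative at 1dMeioLC, against 37.8% of all genes called, and 14 of the 25 held under every alternative. Hist1h2bc had the lowest adjusted p: its difference of 2.72 in 1dEB was smaller by 2.25 (SE 0.16) at 1dMeioLC (adjusted p = 4.4e-06). Hist1h1c went from a difference of 2.50 to one of -0.13 (interaction -2.62 ± 0.20, adjusted p = 6.2e-06). Hist1h1b turned from lower in ST to higher in ST (1.81 ± 0.14, adjusted p = 6.7e-06). In Hist1h4c the interaction was 2.77 ± 0.45 (adjusted p = 0.00089), with 11.5 and 11.1 in LT-1dMeioLC and 21.7 and 29.1 in ST, although the ST minus LT call at 1dMeioLC alone (1.09) was lost when a library was left out. Hist1h4d read 52.7 and 53.7 in LT and 70.1 and 81 in ST (interaction 1.39 ± 0.23, adjusted p = 0.00099). The ST minus LT difference of Hist3h2a was smaller by 1.47 (SE 0.18, adjusted p = 0.00013) at 1dMeioLC. There it was 0.54, and that call was lost without LT-1dMeioLC replicate 2 (adjusted p = 0.060) or ST-1dMeioLC replicate 2 (adjusted p = 0.064). Hist1h3e was lower in ST at both stages, more so at 1dMeioLC (-1.41 ± 0.28, adjusted p = 0.0029).

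**Figure D4:**
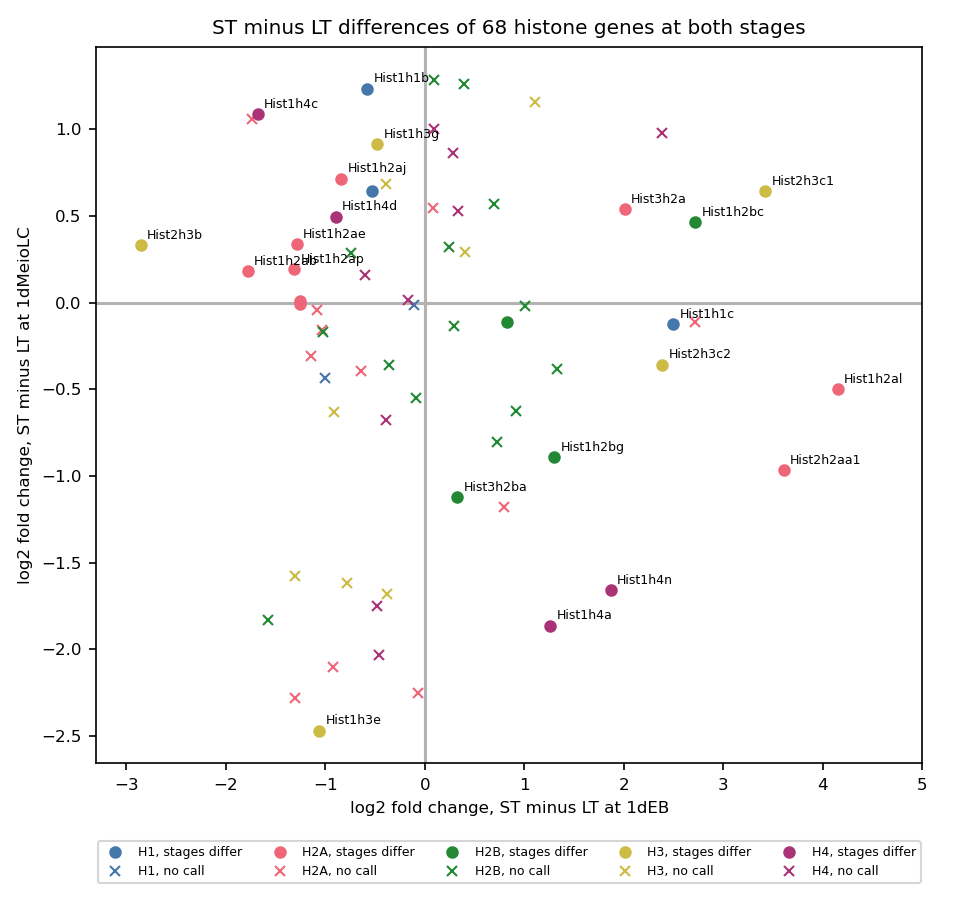
Log2 fold change of ST minus LT at 1dEB (x axis) against that at 1dMeioLC (y axis) for the 68 tested histone genes, coloured by class; filled circles are the 25 genes whose difference between stages was called, crosses the others. Hist1h1c and Hist1h2bc lie at the right near or just above 0 on the y axis, and Hist1h1b lies at the top left of 0 on the x axis.

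The stages were then compared within each line. In LT, 1dMeioLC against 1dEB gave 10 histone genes higher and 27 lower, against 65% of all genes called (27.6% higher and 37.5% lower), and the median was -0.83 over the 68 and -0.17 over all genes. In ST the counts were 10 and 29, against 63% of all genes (25.5% higher and 37.5% lower), and in RT 13 and 21, against 68.5% (23.5% higher and 45.1% lower). The splits moved with the scaling: with TPM as deposited they were 12 and 16 in LT, 13 and 23 in ST and 21 and 10 in RT, and under quantile normalization RT had 17 and 16. Without ST-1dEB replicate 2 the higher count in ST was 4, and without RT-1dEB replicate 2 or either RT-1dMeioLC library that in RT was 8. The median of all genes moved with the scaling too, from -0.17, -0.21 and -0.45 in LT, ST and RT to 0.19, 0 and 0.30 with TPM as deposited. Called the same way in all 3 lines were 4 genes higher (Hist1h2ai, Hist1h2bm, Hist3h2a and Hist3h2ba) and 12 lower, among which Hist1h4d in RT turned to 0.29 with TPM as deposited. Only some of these calls held under every alternative in all 3 lines. They were Hist1h2bm and Hist3h2a among the higher genes, and Hist1h1c, Hist1h1d, Hist1h1e, Hist1h4h and Hist1h4i among the lower. The call of Hist1h2ai did not hold throughout in LT, nor that of Hist3h2ba in ST. The share of all genes called the same way in all 3 lines was not counted. The overlap is therefore not read as particular to histone genes.

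Linker histone RNA fell with the stage. All 5 tested H1 genes were lower at 1dMeioLC in LT and in RT, and 3 of the 5 in ST, save that Hist1h1b in RT turned to 0.03 with TPM as deposited. The call of Hist1h1a did not hold under every alternative in LT or in RT. Hist1h1e went from 58.7 and 54.4 to 7.06 and 5.55 in LT (-2.99 ± 0.17, adjusted p = 9.7e-08) and from 53.2 and 53.9 to 6.89 and 7.04 in RT. Hist1h1c fell in ST by 4.31 (SE 0.14, adjusted p = 1.8e-09), the largest fall of the H1 class, after which all 3 lines stood between 11.4 and 14.1. Hist1h1d, at 3.8 and 4.99 in LT-1dEB, was at 0.199 and 0.0721 in LT-1dMeioLC. Hist1h1b fell by 1.82 in LT (SE 0.10, adjusted p = 6.2e-08). In ST its 70.9 and 83 overlapped with the 81.8 and 72.7 of the 1dEB stage. Of 13 H4 genes, 7 were lower and 1 higher in LT, 8 and 1 in ST, and 4 and 1 in RT, beside 37.5%, 37.5% and 45.1% of all genes lower. Hist1h4i went from 123 and 136 to 25.3 and 26.5 in LT, and Hist1h4h from 123 and 168 to 6.59 and 20.9 in ST.

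A few core histone genes rose. Hist3h2a went from 7.27 and 8.84 to 50 and 45.9 in LT (2.44 ± 0.13, adjusted p = 4e-08), from 36.5 and 34.2 to 64.2 and 76.5 in ST (0.97 ± 0.13), and from 26.5 and 25.4 to 56.8 and 51.8 in RT (1.04 ± 0.13). Hist3h2ba went from 15.6 and 22.6 to 99.6 and 96.8 in LT (2.33 ± 0.22, adjusted p = 5.1e-06). Hist1h2bm, with few shared windows, went from 14.4 and 17.7 to 64.9 and 76.7 in LT (2.08 ± 0.35, adjusted p = 0.00039), from 8.4 and 6.37 to 68 and 57.3 in ST (2.93 ± 0.35), and from 10.9 and 3.63 to 103 and 86.1 in RT (3.68 ± 0.35, adjusted p = 4.6e-06). Hist3h2ba in ST went from 27.3 and 20.9 to 42.9 and 46.4, a call that did not hold under every alternative. In each line both 1dMeioLC libraries were above both 1dEB libraries for these 3 genes. Slbp rose with them in LT, from 29.4 and 25.5 to 66.6 and 67.3 (1.26 ± 0.08, adjusted p = 2.5e-07), while 12 of the 16 chaperone genes were lower. Of the 26 S phase genes 19 were lower and 4 higher, or 13 and 9 with TPM as deposited. The 1dMeioLC samples also differ from 1dEB in their ribosomal RNA-like share, given above, and in somatic cell markers. Gonadal somatic markers summed to 49.7 and 56.3 in LT-1dEB, 85.4 and 86.7 in ST-1dEB and 44.5 and 48.9 in RT-1dEB, below all 1dMeioLC libraries. Fibroblast markers were higher at 1dMeioLC than at 1dEB in LT (447 and 455) and RT (421 and 428), but lower in ST (562 in both libraries). The part of these was not tested.

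Germ cells taken from the embryo gave a reference without the ESC step. In E10.5PGC against LT-1dEB, 7 histone genes were higher and 29 lower, against 61.5% of all genes called (16% higher and 45.4% lower), and the split was 13 and 23 with TPM as deposited and 12 and 21 under quantile normalization. All 5 H1 genes were lower, as were 9 of 13 H4 and 8 of 12 H3 genes, whereas 4 H2A genes were higher and 1 lower. Of the 10 noncoding reference RNAs 9 were lower and none higher (median -3.63), erythroid markers were higher in 3 of 3 and fibroblast markers lower in 5 of 6, and the part of these was not tested. Hist1h2ac, a core H2A gene, was highest in this group, at 47.1 and 54.1 scaled TPM against 9.74 and 7.65 in LT-1dEB (2.42 ± 0.44, adjusted p = 0.00069), and every other library of the 16 lay at 14.1 or below. Hist1h2bc, on the other side of the shared interval printed above, had 45.6 and 37.2 in E10.5PGC and was lower than in LT-1dEB by 1.18 (SE 0.12, adjusted p = 6.4e-06).

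After 1 day of aggregate culture, PGC-1dMeioLC against E10.5PGC had 6 histone genes higher and 9 lower, against 53.9% of all genes called, of which 38.9% were higher and 15% lower. The split was 3 and 11 with TPM as deposited and 2 and 14 under quantile normalization, and the lower count was 5 without E10.5PGC replicate 1. The median was -0.02 over the 68 and 0.28 over all genes. Hist1h2ac fell to 11.9 and 6.46 (-2.39 ± 0.44, adjusted p = 0.00093) and Hist1h2bc to 28.1 and 27 (-0.56 ± 0.12, adjusted p = 0.0019). Hist1h3g went from 12.3 and 14.6 to 4.78 and 3.98 (-1.43 ± 0.27, adjusted p = 0.0011). Hist3h2a rose from 12.2 and 15.5 to 30.1 and 30.6 (1.09 ± 0.13, adjusted p = 3.1e-05) and Hist3h2ba from 16.7 and 23 to 40.6 and 53.6 (1.21 ± 0.22, adjusted p = 0.00091). The pair on chromosome 11 was thus higher after aggregate culture of embryo-derived cells. In the ESC lines the stages also differ in days of induction, 1 against 4, so culture and induction cannot be told apart there. Slbp fell from 137 and 124 to 60.5 and 64.4 and 22 of the 26 S phase genes were lower. Gonadal somatic and fibroblast markers, 9 of 9 and 6 of 6, were higher after culture, and their part was not tested.

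ESC-derived and embryo-derived meiocyte-like cells were compared next. LT-1dMeioLC against PGC-1dMeioLC gave 6 higher and 2 lower of 68, against 22.1% of all genes called. The lower count was 1 without any single library of the 4, with the replicate block, with TPM as deposited and without the filter. Hist1h2bc was higher in LT-1dMeioLC (0.82 ± 0.12, adjusted p = 0.00097), as was Hist3h2a, at 50 and 45.9 against 30.1 and 30.6 (0.64 ± 0.13, adjusted p = 0.0057). Hist1h1b was lower, at 31.6 and 32.4 against 48.9 and 55 (-0.68 ± 0.10, adjusted p = 0.0012). These 3 calls held under every alternative. Macrophage markers (4 genes, all lower in LT) summed to 199 and 206 in LT-1dMeioLC and to 589 and 598 in PGC-1dMeioLC, erythroid markers (3 genes, all higher in LT) to 1935 and 1997 against 785 and 808, and the ribosomal RNA-like share was 1.91% against 5.17%. Their part in the histone values was not tested.

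Gene pairs that share an interval did not all share a profile. Among the 70 genes, 15 pairs are transcribed away from each other with starts within 1000 bases, and in 14 both were tested. Pearson's r of their group means over the 8 groups ran from -0.86 to 0.77 with a median of -0.06, and was above 0 in 5 of the 14, a description over groups that share libraries. Several pairs hold an H2A copy with most windows shared, such as Hist1h2ah (89.5%), or a gene of low level, such as Hist1h2br (mean 0.996 scaled TPM). No r was taken over unpaired genes, so no effect of position can be read from these values. Hist1h2ac and Hist1h2bc, 251 bases apart, had r = -0.07. The heat map shows the same mixture across the family: Hist1h1c, Hist1h2bc and Hist1h4h peak in ST-1dEB beside genes of the same classes that peak in LT-1dEB or E10.5PGC.

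**Figure D5:**
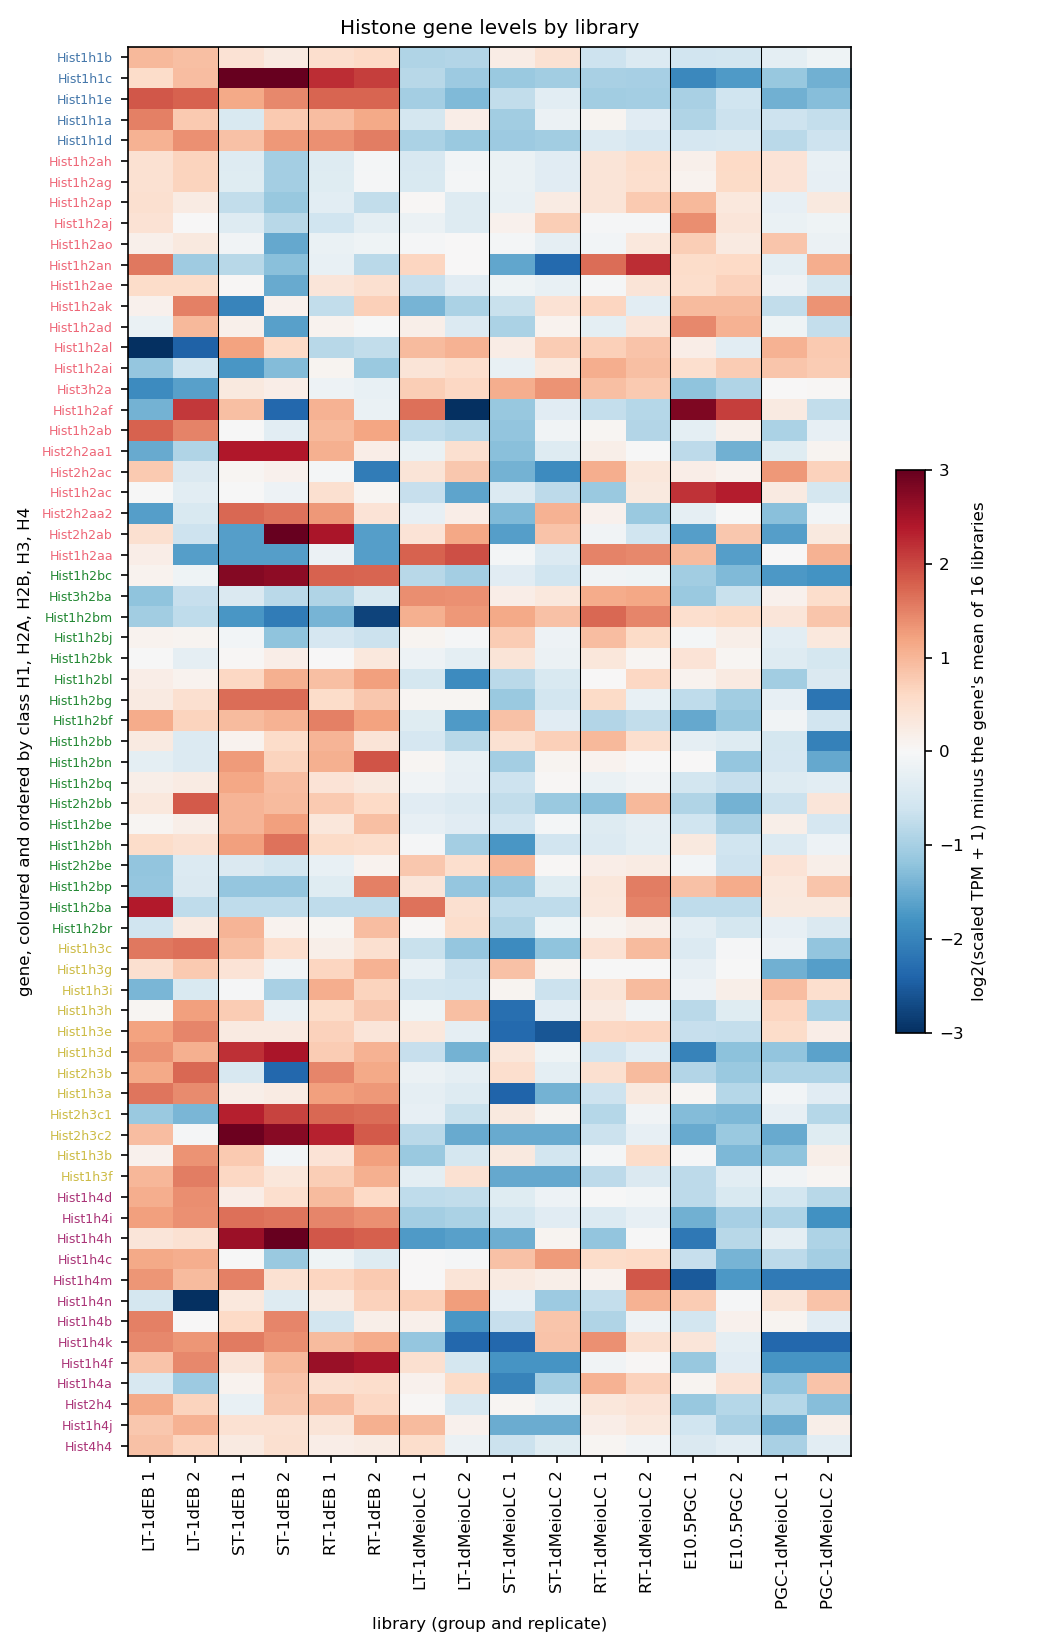
Log2(scaled TPM + 1) of each of the 68 tested histone genes minus its mean over 16 libraries (colour), with genes in rows marked by class and libraries in columns by group. Linker histone and most H4 genes are highest in the 1dEB columns, Hist1h2bm is lowest there, and genes of 1 class do not share 1 profile across LT, ST and RT.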

How the data were processed

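RNA-seq of 16 libraries in 8 groups of 2 was used, from a series of 28 samples in 14 groups. Per the labels' protocols, NEBNext Ultra libraries were prepared from total RNA. Bowtie2, HISAT2, RSEM, R 3.4.2, DESeq2 and mm10 are named, per the submitters' processing notes, without roles. No source used here gives a poly(A) selection, the strand setting or the gene annotation. TPM values were deposited in 1 table by the authors for 53564 symbols, and 12 columns were not used: 6 names of epiblast-like cells occur 2 times each and match no single sample.

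TPM was scaled so that nuclear protein-coding genes (GENCODE M21 biotypes) sum to 1000000 per library. Genes with at least 1 deposited TPM in at least 2 libraries (21935) were fitted with limma 3.58.1 in R 4.3.3 on log2(scaled TPM + 1), 1 mean per group, with a trend and 8 residual degrees of freedom. Adjusted p-values are Benjamini-Hochberg over all kept genes within a comparison, 2-sided, with a threshold of 0.05. Errors of fold changes are limma's standard errors and those of levels are SD. Read depth is unknown, and the number of libraries limits precision. The fit was tested on simulated data. Alternatives were TPM as deposited, quantile normalization, a pseudocount of 0.1, other filters, a replicate block and each library left out.

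The genes, lists and tests were chosen with earlier results of these data known. The rule for naming genes took the 4 highest of each class, those outside the Hist1 cluster, up to 3 called genes with the largest rise and fall in each comparison, and those set apart by sequence. The text describes a selection of these and leaves some out. Among those left out are Hist1h2aa and Hist1h4k, called between the stages in LT, and Hist2h2be, whose rise there held under every alternative. Hist1h1a, Hist1h2bq and a few others that fall outside the rule in a comparison were named after their values were seen. A gene was called higher or lower only past the threshold.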

Additional observations from a re-analysis of the deposited data

Results flagged for a closer look

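The ST minus LT difference was not the same at 1dMeioLC as at 1dEB for 25 of the 68 tested histone genes, by limma's interaction test with Benjamini-Hochberg adjustment over all genes; 37.8% of all genes were called by the same test. Each value below is the log2 difference at 1dMeioLC minus that at 1dEB. It was below 0, so that the difference was less positive or more negative at 1dMeioLC, for 13 genes. Among H1 and H2A genes it was -2.62 for Hist1h1c, -4.65 for Hist1h2al, -4.57 for Hist2h2aa1 and -1.47 for Hist3h2a. Among H2B genes it was -2.25 for Hist1h2bc, -2.20 for Hist1h2bg, -1.45 for Hist3h2ba and -0.94 for Hist1h2bq. Among H3 and H4 genes it was -2.78 for Hist2h3c1, -2.75 for Hist2h3c2, -1.41 for Hist1h3e, -3.53 for Hist1h4n and -3.13 for Hist1h4a. Of these 13 genes, Hist2h2aa1 and Hist2h3c1 share 100% of their windows with other genes, Hist1h2bq 96.9%, Hist1h4n 80.7% and Hist2h3c2 61.6%.

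It was above 0 for 12 genes. Among H1 genes it was 1.81 for Hist1h1b and 1.17 for Hist1h1e. Among H2A genes it was 1.24 for Hist1h2ag, 1.27 for Hist1h2ah, 1.51 for Hist1h2ap, 1.55 for Hist1h2aj, 1.62 for Hist1h2ae and 1.96 for Hist1h2ab, of which the first 4 share 76.2% to 92.2% of their windows with other genes. Among H3 and H4 genes it was 3.18 for Hist2h3b, 1.39 for Hist1h3g, 2.77 for Hist1h4c and 1.39 for Hist1h4d. Of the 25, 9 below 0 and 5 above 0 held under every alternative. The 6 H2A genes above 0 did not, since each lost its call when a library was left out.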

How the results depend on the processing

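Of 209 calls of histone genes taken by the naming rule, 111 held under every alternative, 58 were lost under another scaling, pseudocount, filter or the replicate block, and 89 with 1 library left out, many under both. The 2 libraries per group limit what can be called. The 4 changes of sign came under another scaling: Hist1h1c in PGC-1dMeioLC against E10.5PGC became -0.079 under quantile normalization, and with TPM as deposited RT-1dMeioLC against RT-1dEB became 0.031 for Hist1h1b, 0.19 for Hist1h3g and 0.29 for Hist1h4d. The cause was not tested.

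Of 156 counts of called histone genes under alternatives other than leaving out a library, 140 were within 1.5 times the main count. With TPM as deposited, RT against ST 1dEB had 2 higher and 19 lower, RT against ST 1dMeioLC 1 lower, PGC-1dMeioLC against E10.5PGC 3 higher, LT-1dMeioLC against PGC-1dMeioLC 1 lower, LT-1dMeioLC against LT-1dEB 16 lower, RT-1dMeioLC against RT-1dEB 21 higher and 10 lower, and E10.5PGC against LT-1dEB 13 higher. Under quantile normalization RT against ST 1dEB had 10 higher, RT against ST 1dMeioLC 1 lower, PGC-1dMeioLC against E10.5PGC 2 higher and 14 lower, and E10.5PGC against LT-1dEB 12 higher. LT-1dMeioLC against PGC-1dMeioLC had 1 lower without the filter and 1 with the replicate block. Other splits of higher and lower that moved with TPM as deposited were 15 and 12 for ST against LT 1dEB, 10 and 13 for RT against LT 1dEB, 9 and 18 for the interaction. The mean sum of all histone genes as deposited was 3922 in LT-1dEB, 2669 in ST-1dEB, 1957 in RT-1dEB, 3786 in LT-1dMeioLC, 3783 in ST-1dMeioLC, 5966 in RT-1dMeioLC, 6217 in E10.5PGC and 4085 in PGC-1dMeioLC. These sums differ from the scaled ones by the factor of each library.

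With 1 library left out, higher and lower counts ranged from 9 to 11 and 10 to 13 in ST against LT 1dEB, 3 to 6 and 4 to 7 in RT against ST 1dEB, 8 to 10 and 3 to 6 in RT against LT 1dEB, 1 to 8 and 5 to 9 in ST against LT 1dMeioLC, 6 to 11 and 1 to 3 in RT against ST 1dMeioLC, and 1 to 5 and 0 to 0 in RT against LT 1dMeioLC. They ranged from 4 to 6 and 5 to 8 in PGC-1dMeioLC against E10.5PGC, 4 to 8 and 1 to 1 in LT-1dMeioLC against PGC-1dMeioLC, 7 to 9 and 21 to 26 for the stage in LT, 4 to 12 and 22 to 30 in ST, 8 to 10 and 15 to 19 in RT, 5 to 7 and 24 to 28 in E10.5PGC against LT-1dEB, and 8 to 14 and 10 to 18 for the interaction. A group left with 1 library was assumed to vary like the others. Over 28 pairs of groups, libraries with the same replicate number deviated together with r from -0.03 to 0.04, none over 0.1. No deviation common to the kept genes at large was thus seen. An r over all kept genes cannot show whether such libraries were handled together in a way that touched few genes. The replicate block cost 8 of the 209 calls.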
